A study of Ovis aries with 18 samples.

Results

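CLEC4E and PTX3, 2 genes of innate pattern recognition, were followed in sheep whole blood stimulated with agonists of the receptor TLR4. All probes of the genes on the array were taken, by probe name or by the accession that a probe carries. This gave 4 of the 15008 non-control probes, with 2 for CLEC4E (A_70_P003521 and A_70_P003522, which carry the same accession) and 2 for PTX3 (A_70_P010836 and A_70_P010837, which carry different accessions). The array's annotation gave these accessions without a symbol, and the gene names are those of the study's probe list. Venous blood of 6 healthy adult female sheep, about 3 years old, was divided into a control portion with phosphate-buffered saline (PBS), a portion with lipopolysaccharide (LPS), which is the endotoxin in the outer membrane of Gram-negative bacteria, and a portion with MPLA. The last is monophosphoryl lipid A, an LPS analog that lacks a phosphate group of lipid A. LPS was used at 1 µg and MPLA at 10 µg, which the study's methods give per mL, over an incubation of 90 minutes. Each treatment had 6 arrays, 1 for each animal, so that every comparison was made within animals. Because the amounts differed, agonist and amount cannot be told apart when MPLA is set beside LPS. The study states the temperature of the incubation differently in different places, and it is left out here. Stimulation took place outside the body, so that cells of the vessel wall and of organs were not part of the samples.

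CLEC4E, also called Mincle, is a C-type lectin receptor on the surface of myeloid cells. It pairs with the adaptor FcRγ, signals through the kinase SYK and the adaptor CARD9, and recognises mycobacterial and fungal glycolipids as well as a protein released by dying cells. PTX3 is the long pentraxin, a secreted pattern recognition molecule that binds microbes, the complement component C1q and factor H, and that marks particles for uptake. Monocytes, dendritic cells, endothelial cells and fibroblasts make it in response to TLR agonists, IL-1 and TNF, and neutrophils hold a store of it in their granules. One of the members is therefore a receptor on cells and the other is a soluble product.

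Values are relative signals, that is, the background-subtracted signal of a probe divided by the 75th percentile of all non-control probes on that array. Changes are within-animal differences on the log2 scale of these relative signals. Array brightness differed, with a 75th percentile between 24.7 signal units (PBS, animal 170) and 123.1 (PBS, animal 71Y). The share of probes marked as well above background by the scanner software lay between 23.9% and 45.1%. The arrays came from 3 slides, and every animal had its arrays together on a slide, apart from 170, whose MPLA array lay on another. No member spot was saturated or marked as an outlier on any array. As whole blood was assayed, fewer cells of a type and less RNA per cell cannot be told apart. The T cell genes CD3D and CD3E and the red cell gene HBB were well above background in every sample. CD3E lay between 116.0 and 329.9 and HBB between 860.8 and 5853 in relative signal. Of the other T cell markers named on the array, CD28 was detected on 1 PBS array only and CD4 on none. The monocyte genes CD14 and LYZ were well above background on all 18 arrays. Of the neutrophil markers, LTF alone was named on the array, and it was detected on 5 of 18 arrays.

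CLEC4E was measurable in unstimulated blood and rose with both agonists in 6 of 6 animals, which was the case for 2.38% of tested probes with LPS and 2.09% with MPLA. Its probe A_70_P003522, given first because it had the higher mean signal, rose 5.16-fold with LPS and 4.48-fold with MPLA, and A_70_P003521 rose 4.73-fold and 4.61-fold. PTX3 differed in that in PBS its probes were detected, that is, marked as well above background, on 0 of 6 arrays each. With LPS both PTX3 probes were well above background on 4 of 6 arrays. Both were called as higher with LPS on the values as deposited, but neither was called once signals under each array's lowest detected signal were set to it (log2 changes of 1.14 and 0.64). With MPLA its probe A_70_P010836 was detected on 5 of 6 arrays and A_70_P010837 on 3 of 6, and neither was called.

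**Figure D1:**
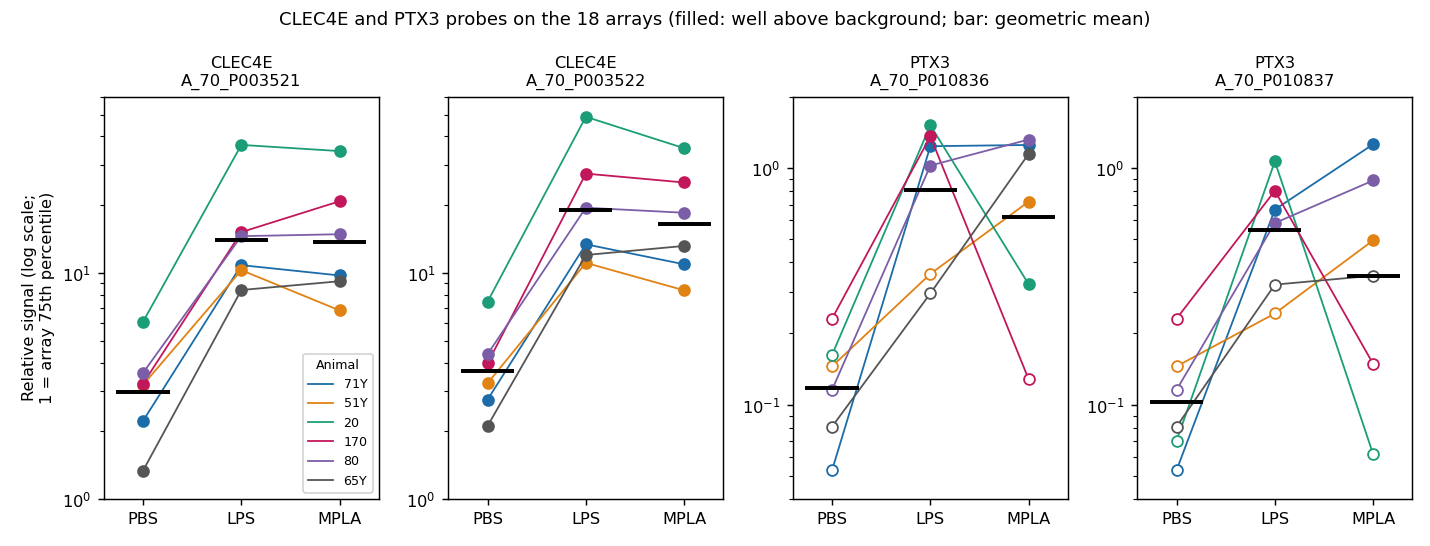
Relative signal (log scale, 1 = the array's 75th percentile) of the 4 member probes under PBS, LPS and MPLA, with 1 line per animal, filled points where the spot was well above background, and bars for geometric means. For CLEC4E all points are filled and lines run side by side from PBS to either agonist, whereas for PTX3 all PBS points are open and the lines of animals 20 and 170 fall from LPS to MPLA.

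In PBS the relative signal of CLEC4E probe A_70_P003522 was 2.75 in animal 71Y, 3.25 in 51Y, 7.44 in 20, 3.98 in 170, 4.36 in 80 and 2.10 in 65Y. With LPS it was 13.4, 11.1, 48.9, 27.4, 19.4 and 11.97 in the same order of animals. With MPLA it was 10.9, 8.36, 35.5, 25.04, 18.4 and 13.1. The lowest agonist value, 8.36 in animal 51Y, lay above the highest PBS value, 7.44 in animal 20, so that PBS did not overlap with either agonist. The LPS and MPLA values overlapped. Animal 20 had the highest level of this probe under every treatment.

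The second CLEC4E probe, A_70_P003521, likewise had no value under PBS as high as any agonist value. In PBS it measured 2.21 in animal 71Y, 3.19 in 51Y, 6.07 in 20, 3.23 in 170, 3.61 in 80 and 1.33 in 65Y. With LPS the values were 10.8, 10.3, 36.7, 15.1, 14.5 and 8.38, and with MPLA they were 9.72, 6.81, 34.5, 20.7, 14.8 and 9.17. Its highest PBS value, in animal 20, was below the lowest LPS value, in 65Y, and the lowest MPLA value, in 51Y. Groups without overlap and higher than PBS made up 0.679% of the 4122 tested probes with LPS and 0.607% with MPLA.

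The change of A_70_P003522 with LPS was 2.37 ± 0.38 on the log2 scale (SD, n = 6, limma adjusted p 0.00011), with a 95% confidence interval from 1.97 to 2.76. Single animals lay between 1.77 (51Y) and 2.78 (170). With MPLA the change was 2.16 ± 0.48 (SD, n = 6, limma adjusted p 0.0003), with an interval from 1.72 to 2.60 and single animals between 1.36 (51Y) and 2.65 (170). A_70_P003521 changed by 2.24 ± 0.36 with LPS (limma adjusted p 0.00012) and by 2.205 ± 0.62 with MPLA (limma adjusted p 0.00062), again with its smallest changes in animal 51Y, 1.68 and 1.09. Among all 4122 probes tested with limma, 0.825% were called as higher with LPS and 0.776% as higher with MPLA, so both CLEC4E probes stood among a small minority. By size of change A_70_P003522 ranked 20 from the top with LPS and 18 with MPLA, and A_70_P003521 ranked 23 and 17. Flipping the signs of the animals' changes in all ways, an exact two-sided permutation test, gave p 0.031 for each of these 4 changes, the smallest value that n = 6 allows, and 0.062 after Benjamini-Hochberg adjustment over 12 such tests. Background correction by normexp ended the LPS call of both probes, at 1.63 for A_70_P003522 (limma adjusted p 0.57) and 1.47 for A_70_P003521 (limma adjusted p 0.53), but not the MPLA calls (1.89 and 1.87). The MPLA call of A_70_P003521 also ended with slide as block (2.18, limma adjusted p 0.054) and by the methods' test after adjustment (0.077).

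The spread between animals was wider for the level of CLEC4E than for its change, a difference that was not tested. In PBS the highest level of A_70_P003522 was 3.54 times the lowest, and with LPS it was 4.42 times the lowest. On the log2 scale the SD between animals was 0.83 for the LPS level and 0.78 for the MPLA level, against 0.38 and 0.48 for the changes from PBS. On each slide taken alone the mean LPS change of this probe was 2.53, 2.33 and 2.24, each over 2 animals. For MPLA it was 1.99 in the single animal of the first slide, and 2.36 and 1.81 over 2 animals each on the others. The direction was thus the same on every slide.

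The direct comparison of MPLA with LPS left CLEC4E without a call. A_70_P003522 was lower with MPLA in 5 of 6 animals, by -0.20 ± 0.22 on the log2 scale (SD, n = 6, limma adjusted p 0.82). The 95% confidence interval ran from -0.58 to 0.17, that is, from 0.671-fold to 1.12-fold. With normexp background correction the sign turned, to 0.26. A_70_P003521 differed by -0.04 ± 0.35 (limma adjusted p 0.96), was higher with MPLA in 3 of 6 animals, and had an interval from 0.735-fold to 1.29-fold. Of all tested probes 0.0485% were called as lower with MPLA and 0 as higher by limma, while 195 had an unadjusted p under 0.05. In order of mean level, PBS therefore lay below MPLA and MPLA beside LPS, the last pair without a difference beyond the spread.

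**Figure D2:**
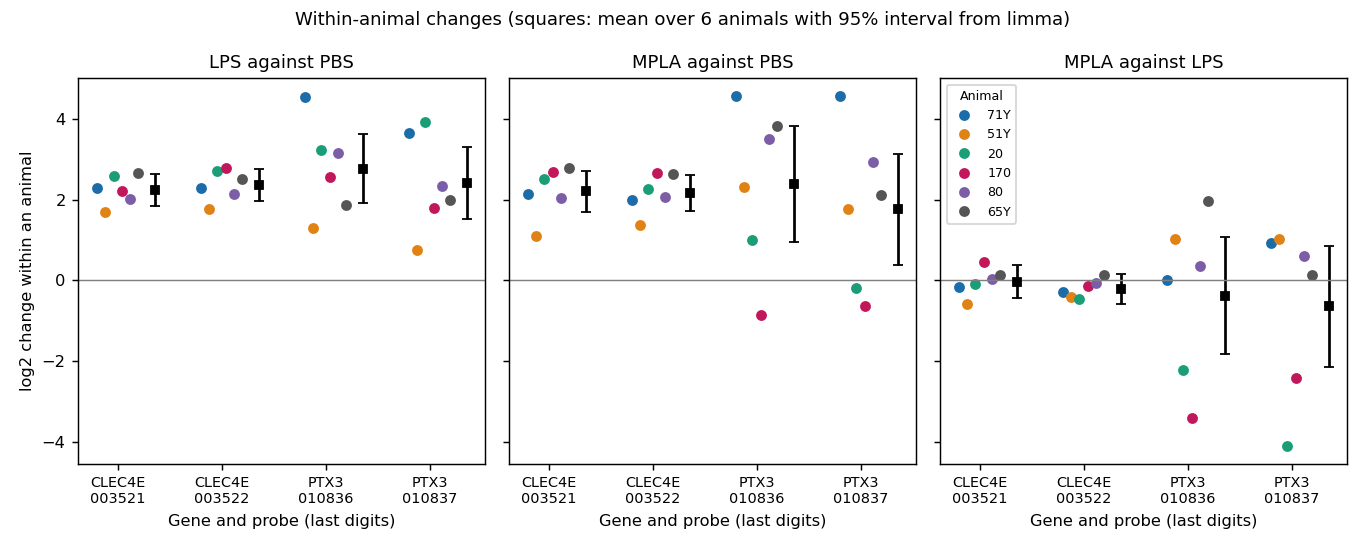
Within-animal log2 changes of the 4 probes in the 3 comparisons, with 1 coloured point per animal and black squares for the mean of 6 animals with limma's 95% confidence interval. CLEC4E points cluster between 1.09 and 2.78 against PBS and around 0 between the agonists, whereas PTX3 points spread from -4.11 to 4.57. Each end of the PTX3 spread involves a spot too low to tell from background.

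PTX3 was at the floor of the measurement in unstimulated blood. On 5 of 6 PBS arrays both probes carried the surrogate that the scanner software writes in place of signals too low to tell from background. The exception was animal 20, whose A_70_P010836 signal of 16.1 units was close to, but under, the lowest signal called well above background on that array (17.3 units). Relative signals of A_70_P010836 in PBS were 0.0529 in animal 71Y, 0.145 in 51Y, 0.162 in 20, 0.231 in 170, 0.116 in 80 and 0.0808 in 65Y. Outside animal 20 these PBS values are the surrogate of an array divided by that array's brightness, and are no measured levels. The lowest detected signal of each PBS array, taken below as the limit for PTX3, lay between 0.174 (20) and 1.14 (170) in relative signal.

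With LPS the relative signal of A_70_P010836 was 1.24 in animal 71Y, 0.357 in 51Y, 1.51 in 20, 1.36 in 170, 1.02 in 80 and 0.295 in 65Y. The spots of animals 51Y and 65Y were not well above background. All 6 numbers exceeded those of PBS, but since most of the latter are surrogates this says little, and 3 of the 6 were under the lowest detected level of the PBS array of animal 170. With MPLA it was 1.25 in animal 71Y, 0.720 in 51Y, 0.323 in 20, 0.128 in 170, 1.32 in 80 and 1.15 in 65Y. Animal 170 was the one without detection, at the surrogate.

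The other PTX3 probe was detected on fewer MPLA arrays. A_70_P010837 measured 0.667 in animal 71Y, 0.243 in 51Y, 1.07 in 20, 0.800 in 170, 0.585 in 80 and 0.321 in 65Y with LPS. The same animals, 51Y and 65Y, were without detection. With MPLA it measured 1.26, 0.494, 0.0618, 0.149, 0.885 and 0.351 in that order, and was detected in animals 71Y, 51Y and 80. All 6 LPS values of this probe were under the lowest detected level of the PBS array of animal 170, so that no order between LPS and PBS can be read from them across animals.

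Since PTX3 was not detected on all 6 arrays of any treatment, it was tested among the 4992 probes detected on at least 4 of 6 arrays of a treatment. With LPS the fitted log2 change was 2.77 ± 1.14 for A_70_P010836 (SD, n = 6, limma adjusted p 0.0089) and 2.41 ± 1.20 for A_70_P010837 (limma adjusted p 0.03). Limma called 0.601% of the probes as higher with LPS. Both probes passed the detection filter through the agonist groups alone, and these calls rest on surrogates in PBS. Because PBS held only limits, the rise is better given as a bound. PTX3 was at least 1.79-fold higher with LPS by A_70_P010836 and at least 1.21-fold higher by A_70_P010837, with the PBS side set to the lowest detected signal of each array. With all arrays floored in that way the log2 changes were 1.14 ± 1.31 (higher in 5 of 6 animals, limma adjusted p 0.86) and 0.64 ± 1.20 (higher in 4 of 6, limma adjusted p 1.0). The call of A_70_P010836 also ended with normexp background correction (0.84) and with all 18 arrays in 1 fit (2.77, limma adjusted p 0.073). Without animal 80 the call of A_70_P010836 also ended (2.70, limma adjusted p 0.057), and A_70_P010837 lost its call without animal 71Y, 20, 80 or 65Y in turn.

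PTX3 was detected on agonist arrays only, a difference that was not tested. Among probes picked for no detection in PBS, as in the counts that follow, detection can only be gained. Of the 7542 probes that were well above background on 0 of the PBS arrays, 0.119% were detected on at least 4 of 6 LPS arrays and 0.106% on at least 4 of 6 MPLA arrays. Both PTX3 probes were among the 9 probes of the LPS group, and A_70_P010836 was among the 8 of the MPLA group.

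With MPLA the computed PTX3 changes were uneven between animals. The log2 change of A_70_P010836 was 2.39 ± 2.02 (SD, n = 6, limma adjusted p 0.32), between -0.85 (170) and 4.56 (71Y). Neither end is a measured change. In animal 170 the PBS and MPLA spots were both at the surrogate (5.705 and 5.388 signal units). The value -0.85 thus holds only surrogates and array brightness, and it enters the mean and SD. In 71Y the PBS spot was at the surrogate. The log2 change of A_70_P010837 was 1.76 ± 1.95 (limma adjusted p 0.66). Floored as above the changes of the probes were, in the same order, 0.84 (higher in 5 of 6 animals) and 0.38 (higher in 3 of 6). Of the tested probes 0.581% were called as higher with MPLA. With the PBS side set to its limits as above, A_70_P010836 was 1.37-fold higher than PBS, and A_70_P010837 gave no value above 1. These are no strict bounds, since the MPLA mean of each probe includes 1 array at the surrogate. Without animal 170, A_70_P010836 was called, at 3.04 (limma adjusted p 0.036), as it was with animal as a random block (2.39, limma adjusted p 0.045). Both fits still include PBS spots at the surrogate.

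Between the agonists PTX3 had no common direction. In 4 animals the MPLA value of A_70_P010836 exceeded the LPS value, by 0.02 (71Y), 1.01 (51Y), 0.37 (80) and 1.96 (65Y) on the log2 scale, and in animals 20 (-2.23) and 170 (-3.41) it was lower. The LPS spots of 51Y and 65Y were not well above background, and the MPLA spot of 170 was at the surrogate. For these animals the size of the difference is therefore not a measured one. The mean difference was -0.38 ± 2.04 (SD, n = 6, limma adjusted p 0.89), with a 95% confidence interval from 0.282-fold to 2.09-fold. Without animal 170 it was 0.23, of opposite sign. A_70_P010837 differed by -0.65 ± 2.12 (limma adjusted p 0.85), with an interval from 0.225-fold to 1.81-fold. Limma called 0.02% of the 4992 probes as lower with MPLA. Animals 20 and 170 were low with MPLA by both probes. In the order of means PBS came lowest, then MPLA and then LPS, and neither MPLA against PBS nor MPLA against LPS was called after adjustment.

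PTX3 lay close to the detection limit, so its values are set beside array brightness, the 75th percentile of signal. The 3 agonist arrays without detection of A_70_P010836 were the LPS arrays of animals 65Y and 51Y and the MPLA array of 170, at 28.5, 32.4 and 42.1 units, and the agonist arrays with detection lay between 44.6 and 111.0. The MPLA array was 2.45 times as bright as the LPS array in animal 65Y, where this probe was higher with MPLA by 1.96 on the log2 scale, and 1.99 times in 51Y, where it was higher by 1.01. In animal 20 it was 0.402 times as bright, beside a difference of -2.23. In animal 170 the arrays were close in brightness (0.932), beside a difference of -3.41. In animals 71Y and 80 the ratios were 1.11 and 0.96, beside differences of 0.02 and 0.37. The other PTX3 probe, A_70_P010837, differed by 0.13 in 65Y, 1.03 in 51Y, -4.11 in 20, -2.43 in 170, 0.91 in 71Y and 0.60 in 80. The CLEC4E probe A_70_P003522 differed between these arrays by 0.13 in 65Y, -0.40 in 51Y, -0.46 in 20 and -0.13 in 170. Brightness was also entered as a covariate, in a fit added after the values were seen. With log2 of the 75th percentile in the model, the LPS change of A_70_P010836 was 2.77 (limma adjusted p 0.026), that of A_70_P010837 lost its call at 2.42 (limma adjusted p 0.059), and the MPLA change of A_70_P010836 was 2.44 (limma adjusted p 0.33). MPLA against LPS went from -0.38 to -0.65 for A_70_P010836 and from -0.65 to -0.93 for A_70_P010837, neither called. Surrogates and undetected spots enter these fits, so the part of brightness in the PTX3 values cannot be read from them. It was not tested otherwise.

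**Figure D3:**
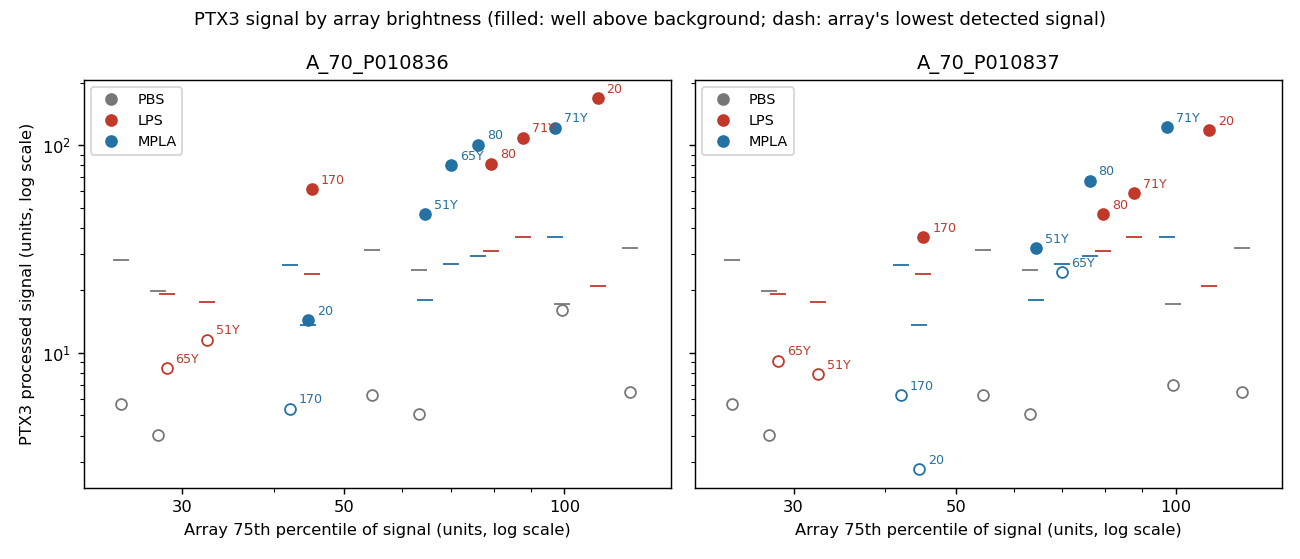
Processed signal of the PTX3 probes against the 75th percentile of each array, both in signal units on log scales, with filled points where PTX3 was well above background, dashes for the lowest detected signal of each array, and animal names beside the agonist arrays. Every PBS point is open, and the open agonist points lie at or below 44.6 units on the horizontal axis, except animal 65Y with MPLA for A_70_P010837.

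Agreement between the probes of a gene was close for CLEC4E and looser for PTX3. Over the 18 arrays, the CLEC4E probes correlated with a Pearson r of 0.987 (Spearman rho 0.979), given as a description since arrays of an animal are not independent and the probes share every library. Both were detected on all 18 arrays. The PTX3 probes correlated at 0.903 (rho 0.895), a value to which arrays with the same surrogate for both probes contribute. Their detection was the same on 16 of 18 arrays, and on the other 2, the MPLA arrays of animals 20 and 65Y, A_70_P010836 alone was detected. For CLEC4E the LPS changes of the probes differed by 0.13 ± 0.24 on the log2 scale (SD, n = 6, exact sign-flip p 0.28, adjusted 0.42 over 6 tests). For PTX3 they differed by 0.37 ± 0.64 with LPS (exact sign-flip p 0.25, adjusted 0.42) and by 0.63 ± 0.72 with MPLA (exact sign-flip p 0.12, adjusted 0.42). None of the 6 differences was larger than the spread between animals.

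**Figure D4:**
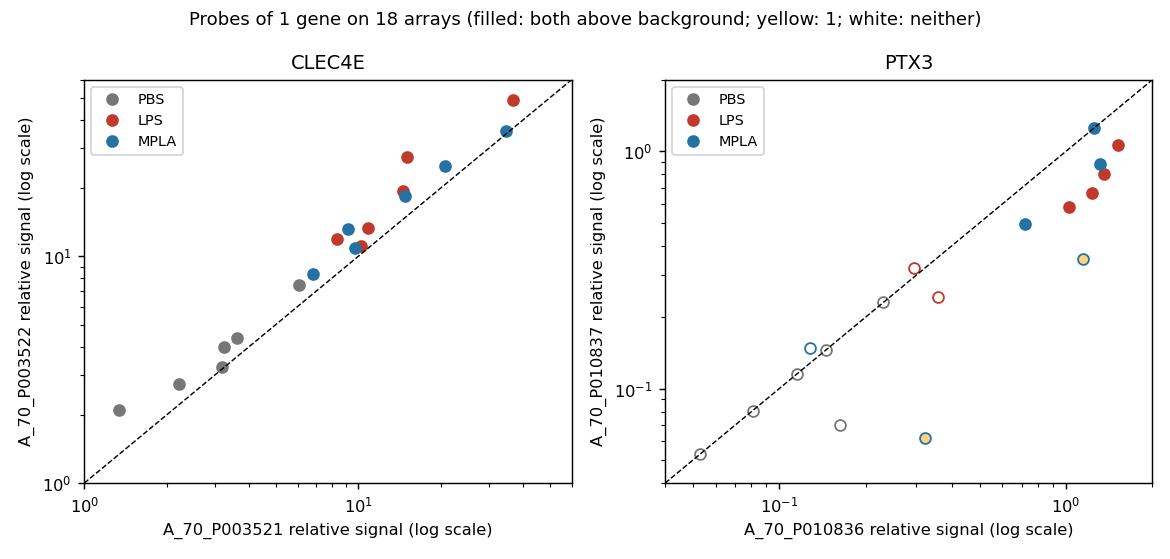
Relative signal of one probe against the other probe of the same gene on 18 arrays, on log scales, coloured by treatment, with the line of equality. The CLEC4E points follow a line just above equality over the whole range, whereas PTX3 points with neither probe detected (white) lie mostly on the line at the shared surrogate and filled points lie below it or close to it.

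Few of the remaining genes of these pathways could be named on the array. As 1272 of the 15008 probes had a name, a gene not named here may still have a probe. Of 21 genes for lectins related to CLEC4E and its signalling partners, among them FCER1G, SYK and CARD9, 0 were named on the array. Of 34 genes for pentraxins, complement and PTX3 ligands 7 were named and 1 was tested, the Fc receptor gene FCGR2B, at a log2 change of -0.34 ± 0.55 with LPS and -0.09 ± 0.45 with MPLA, the latter of opposite sign with median centring or normexp. CFB, the complement factor B gene, was well above background on 2 of 6 PBS, 4 of 6 LPS and 5 of 6 MPLA arrays and was not tested. Of 35 other pattern recognition receptors 10 were named and 2 were tested. CD14, the co-receptor that hands LPS to TLR4, changed by -0.31 ± 0.22 with LPS and -0.47 ± 0.36 with MPLA, and TLR6, a partner of TLR2, by -0.08 ± 0.30 and 0.28 ± 0.37. None of these 3 genes was called for either agonist. TLR4 itself was detected on 1 of 6 arrays of each treatment, and TLR2 on 2 PBS, 2 LPS and 5 MPLA arrays. The medians of the 2 tested receptors, -0.19 with LPS and -0.10 with MPLA, stood beside 0.00 and -0.09 for all 4122 probes.

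Among 38 genes of TLR4 signalling and its transcription factors 5 were named and 2 were tested. NFKBIZ, a nuclear IκB protein that assists NF-κB at secondary response genes, rose by 2.62 ± 0.51 with LPS (limma adjusted p 0.00012; call lost with normexp) and by 1.79 ± 0.62 with MPLA (limma adjusted p 0.0028). IRAK4, a kinase of the TLR pathway, was at 0.06 ± 0.51 and 0.05 ± 0.29. Of the 21 cytokine genes 13 were named and 9 were tested. Of these, 7 were called as higher with LPS and 7 with MPLA, beside 0.825% and 0.776% of all 4122 tested probes. With normexp background correction all 7 LPS calls were lost, and the MPLA calls of CSF2 and IL6. The median log2 change of the 9 was 2.60 and 2.58, or 2.46 and 1.77 with the 3 genes detected on no PBS array (IL1A, IL6 and CSF2) at their lower bounds. These cytokine genes were already known from these arrays to respond, so this count adds no independent evidence. The monocyte markers CD14 and LYZ had a summed relative signal of 27.0 to 53.8 in PBS, 25.5 to 46.4 with LPS and 21.7 to 57.5 with MPLA, and 0 of the 2 were called by limma for either agonist. The other monocyte marker named on the array, FCGR1A, was detected on no array. Endothelial and stromal cells, which can make PTX3, had 3 markers named on the array, COL1A2, COL3A1 and KDR, and of these COL1A2 and COL3A1 were each detected on 1 of 18 arrays and KDR on none, by the probe of highest mean signal of each gene. Lack of detection on this array does not show low expression: ACTB, which every cell uses, was also detected on 0 of 18 arrays.

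The genes most like CLEC4E over the 18 arrays, by Pearson r of normalised log2 signal with A_70_P003522 among 366 named genes, were IL10 (0.881), LOC101104661 (0.873), TNF (0.870), CSF2 (0.870) and CXCL1 (0.861). The most like PTX3, by A_70_P010836, were IL1A (0.872), CXCL1 (0.839), SOD2 (0.805), LOC101104661 (0.789) and TNF (0.767). The median r over all named genes compared was -0.04 for CLEC4E and -0.10 for PTX3. IL10 is an anti-inflammatory cytokine, IL1A and TNF are inflammatory cytokines, CSF2 is a myeloid growth factor, CXCL1 attracts neutrophils and SOD2 is the mitochondrial superoxide dismutase. These are descriptions over arrays that share animals. The 7 genes named here were picked for likeness to the members. All were called as higher with both agonists by limma, beside 0.825% of tested probes with LPS and 0.776% with MPLA. For CSF2 with LPS the limma adjusted p was 0.042, a call that 10 of 19 alternatives ended, including the removal of any single animal except 170. With normexp the LPS call was lost for these genes apart from LOC101104661. CLEC4E and PTX3 themselves correlated at 0.693 (rho 0.694) over the 18 arrays, and at 0.779 once the mean of each animal was removed. These values and the PTX3 ranking include 5 PBS arrays and 1 MPLA array on which A_70_P010836 was at the surrogate. Among the genes ranked, IL1A and CSF2 were likewise detected on 0 PBS arrays. Arrays without detection thus contribute to these correlations.

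**Figure D5:**
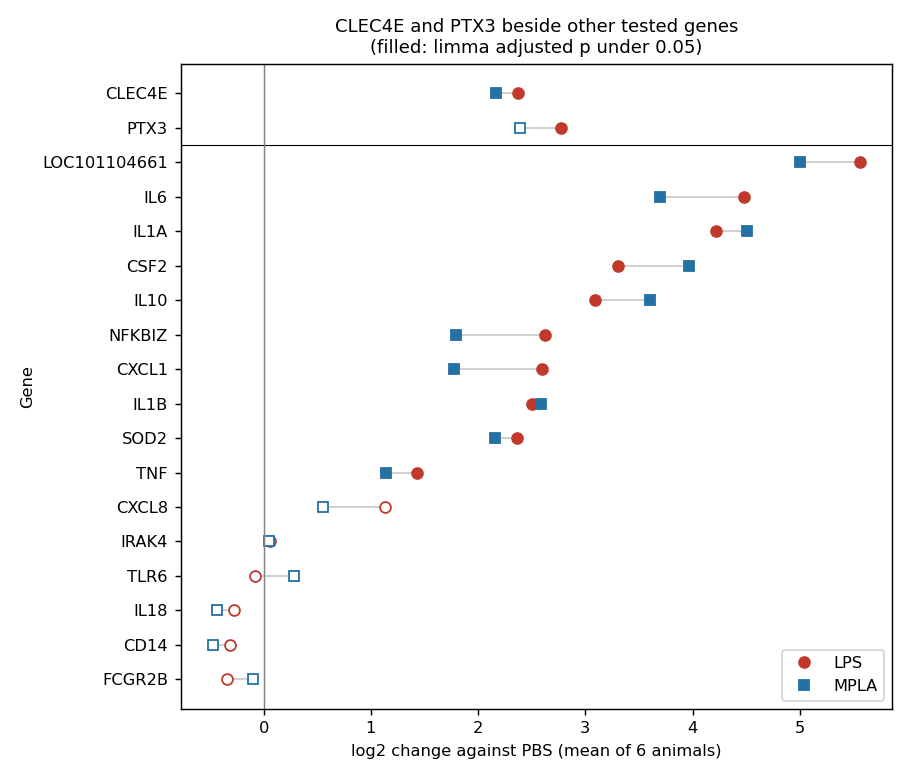
Mean log2 change against PBS over 6 animals for CLEC4E (A_70_P003522) and PTX3 (A_70_P010836), above the line, and for the other tested genes of the pathway lists and the genes of most similar pattern, below it, with circles for LPS, squares for MPLA and filled symbols for a limma adjusted p under 0.05. CLEC4E, at 2.37 and 2.16, is filled for both agonists, and PTX3, at 2.77 and 2.39, is filled for LPS only, while the receptor genes CD14, TLR6 and FCGR2B are open and near 0.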

How the data were processed

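Expression was measured in 18 samples on 1-colour Agilent sheep arrays, read with Agilent Feature Extraction 11.5.1.1 per the file headers. The deposited intensity values are background-subtracted and detrended spot signals, in which low signals are replaced by a surrogate. A second deposited table, used as an alternative, holds ratios of signal to roughly the 75th percentile of each array. On the LPS array of animal 170 and the MPLA array of animal 80 its divisor was 0.790 and 0.793 of that percentile, against 0.984 to 0.995 elsewhere. Per the labels RNA was amplified with either of 2 kits, without saying which sample had which.

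Here outlier spots were left out, replicate spots averaged, and log2 signal minus that of the array's 75th percentile was used. CLEC4E was tested among 4122 probes well above background on all 6 arrays of at least 1 treatment, and PTX3 among 4992 probes with 4 of 6. The 3 pairwise comparisons used limma 3.58.1 (R 4.3.3) with animal as a fixed block, as in the study's paired design, and Benjamini-Hochberg adjustment over all probes tested, called under 0.05. Arrays of an animal are paired by their titles, and their deviations from treatment means correlated at 0.601 on average (lowest 0.132). Where a probe was detected on no array of a treatment, a bound is given. For this the control arrays took their lowest detected signal, or the probe's own signal where that was higher, on the log2 scale. The treatment mean was taken over the deposited values, which for each PTX3 probe included 1 MPLA array at the surrogate. The model was tested on simulated data. Symbols came from RefSeq accessions matched to the ARS-UI_Ramb_v3.0 gene table (1265 of 2200 probes with such an accession), and the study's probe list named 7 more. Probe and gene sequences were not used here. Named genes were the members, genes of lists on recognition, signalling, cytokines and cell types, and for each member the 5 named genes of highest correlation. A gene with several probes was represented by that of highest mean signal. Members, lists and tests were chosen with earlier results of these data known. The number of arrays limits the precision. The neutrophil, B cell and platelet lists had 0 tested genes. Alternatives covered normalization, background, filter, block, slide, test, low values and each animal left out, and 3 more (a common floor, an offset of 10 signal units, array brightness) were chosen after seeing the data.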

Additional observations from a re-analysis of the deposited data

Results flagged for a closer look

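In 72 groups of 6 within-animal changes, 1 value stood far from the other animals, and chance flags about 1 in 20 such groups. It belonged to LOC101104661, one of the genes most like both members, whose log2 change with MPLA against LPS was 0.13 in animal 20 and between -0.93 and -0.54 in the others. No CLEC4E or PTX3 change was flagged in this way.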

How the results depend on the processing

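Both CLEC4E calls for A_70_P003522 kept their direction under every alternative run, and 1 call was lost, that for LPS with normexp background correction (1.63, limma adjusted p 0.57). Leaving out each animal in turn gave 2.28 to 2.49 for LPS, 2.07 to 2.32 for MPLA and -0.27 to -0.15 for MPLA against LPS. For PTX3 (A_70_P010836) these ranges were 2.42 to 3.07, 1.96 to 3.04 and -0.85 to 0.23. Its LPS call was lost with normexp (0.84), all 18 arrays in 1 fit (2.77), a floor at each array's lowest detected signal (1.14), a common floor for all arrays (0.13), the methods' t-test after Benjamini-Hochberg (2.77, adjusted p 0.28) and without animal 80 (2.70). Its MPLA change was called with animal as a random block (2.39), by the methods' t-test at its own threshold (2.39) and without animal 170 (3.04). The fit with no replicate block, which drops the pairing of arrays by animal, changed no call of these probes (CLEC4E 2.37, limma adjusted p 0.0042, and 2.16, 0.012; PTX3 2.77, 0.0095, and 2.39, 0.13).

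Signs that turned belonged to differences without a call. MPLA against LPS became 0.26 for A_70_P003522 with normexp, and for A_70_P003521 it became 0.0033 with quantile normalisation, 0.0605 with median centring and 0.40 with normexp, with a range of -0.14 to 0.074 (without 51Y) over animals left out. For A_70_P010837 it became 0.025 with a common floor, and ranged from -0.98 to 0.047 (without 20). The difference between CLEC4E probes with MPLA became 0.015 with normexp and ranged from -0.10 to 0.0008 (without 20). That between PTX3 probes for MPLA against LPS became -0.084 with normexp and -0.032 with the floor of each array, and ranged from -0.057 (without 20) to 0.51, also turning without 65Y. FCGR2B with MPLA became 0.0146 with median centring and 0.075 with normexp. With LPS, IL18 ranged from -0.41 to 0.013 and TLR6 from -0.14 to 0.0203, both turning without 170, and IRAK4 from -0.076 to 0.18, turning without 71Y or 65Y. With MPLA, IRAK4 was -0.0094 with slide as block and ranged from -0.032 (without 71Y) to 0.12.

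The number of called probes was 27 to 53 for LPS (main 37), 24 to 297 for MPLA (main 42; 297 without animal 20) and 0 to 17 for MPLA against LPS (main 2; 17 without animal 20). A_70_P010837 lost its LPS call under 10 of 22 alternatives. A_70_P003521 lost its LPS call with normexp and its MPLA call under 2 of 23. With the filter of all 6 arrays PTX3 could not be fitted. The cause of these changes was not tested. PTX3 lay near the detection limit, and no probe or gene sequence was examined.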
